A study of Bos taurus with 6 samples.

Results

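Tropomyosins, tropomodulins and leiomodins, the proteins that coat the actin thin filament and control the length of its pointed end, were examined as 9 genes among the 21972 genes in the deposited expression table. The members were taken by gene name and were TPM1, TPM2, TPM3, TPM4, TMOD1, TMOD3, TMOD4, LMOD2 and LMOD3, and each matched 1 row. The tissue was longissimus dorsi, the back muscle in which marbling is graded. One group was 3 Wagyu (Japanese black) males, with libraries WC616, WC719 and WC921, and the other was 3 Chinese Red Steppes males, with libraries RC4, RC5 and RC6. The animals, each aged 28 months, were fed corn and hay, and gave 1 poly(A) library each. The males of a breed had 1 sire and came from 1 farm, so breed, sire and farm cannot be told apart in these 6 libraries. Expression is given as FPKM, which is fragments scaled to gene length and to the reads counted to genes in a library, so that the transcripts of a gene are pooled. Exon choice, such as the alternative exons of TPM2, was not analysed here. Where 3 values are listed for a breed, they are in the order WC616, WC719, WC921 or RC4, RC5, RC6.

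In striated muscle, tropomyosin molecules pair along the groove of the actin filament and, together with the troponins, switch myosin binding on and off with calcium. The genes divide by fibre type in mammals. TPM1 gives the alpha chain of fast fibres, TPM3 the alpha chain of slow fibres and TPM2 the beta chain, while TPM4 serves mostly the cytoskeleton of other cells. At the pointed end of the filament, tropomodulins bind actin and tropomyosin and stop growth, and leiomodins, their larger relatives, start and lengthen filaments there.

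The libraries held 15438095 to 16197141 reads counted to genes. The 9 members together took 3.71% to 4.16% of them, nearly all through the tropomyosins. Genes that define skeletal muscle (ACTA1, CKM, MYLPF, TTN, NEB, DES, MB and TNNC2) summed to 102467 to 113296 FPKM in Wagyu, and the range for Chinese Red Steppes was 105045 to 125464. Of 6 cardiac markers measured, NPPA, NPPB and MYL7 were listed at 0 in every library. TNNT2, TNNI3 and MYL4 were low but above 0, at 0.436 to 3.51 FPKM. TNNT2 was higher in every Wagyu library (limma, adjusted p = 0.367), as were 11.4% of all genes tested. RC6 stood apart from the other libraries in fibre type genes. Of 11 slow fibre genes 8 were highest in RC6, and of 14 fast fibre genes 12 were lowest there. Among all genes tested, RC6 was the highest library for 25% and the lowest for 23.7%. The fast exceptions were MYL1 and PVALB. MYL1 had 2154 FPKM in RC6, above WC719 at 1948 and WC921 at 1930. PVALB had 0.183 FPKM in RC6 and 0 in WC719 and WC921. The slow genes summed to 78253 FPKM in RC6, with RC4 at 28984 and RC5 at 25260.5. The fast genes summed to 46666.5 FPKM in RC6, with RC4 at 91331 and RC5 at 101072. The Wagyu libraries lay between, at 35999 to 48361 for slow and 70432 to 87543 for fast genes. The breed differences of the members and of the sums, shares and ratios that turn direction or move most are therefore also given without RC6. In whole tissue, fewer fibres of a type and less RNA per fibre cannot be told apart.

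None of the members passed the test between the breeds. With limma on log2(FPKM + 1) and Benjamini-Hochberg adjustment over all genes, 0 of the 8 members with a mean of at least 1 FPKM had an adjusted p under 0.05, against 0.02% of the 9990 genes tested. None had an unadjusted p under 0.05 either, a limit that 14.5% of all genes passed, and none was called on reads recovered from the FPKM values by edgeR, which called 0.0685% of its genes, or by DESeq2, which called 1.94%. The median log2 fold change, Wagyu minus Chinese Red Steppes, was 0.07 over the 8 members and 0.03 over all genes. The ninth, TMOD3, was below the minimum. The SD was larger in Chinese Red Steppes than in Wagyu for every member but TMOD1 and LMOD3.

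TPM2, the beta-tropomyosin gene and the most abundant member, stood at 13719, 12958 and 12317 FPKM in Wagyu. Chinese Red Steppes had 12270, 12228 and 14236 FPKM. The breeds overlapped, with RC6 the highest library and RC5 the lowest, and the whole range was 1.16-fold. Wagyu averaged 12998 ± 702 FPKM (SD, n = 3), and Chinese Red Steppes averaged 12911 ± 1147 (SD, n = 3). The log2 fold change was 0.01 with a standard error of 0.19, and its 95% interval of -0.43 to 0.45 leaves room for 0.744-fold to 1.37-fold (limma, adjusted p = 0.984). Without RC6 the difference was 0.08 with a standard error of 0.13 (adjusted p = 0.828 from limma). TPM2 took 406652 to 465042 reads per library, so counting error is small beside the spread between animals.

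TPM1, the alpha-tropomyosin gene of fast fibres, varied most among the abundant members. The Wagyu libraries had 6461, 6503 and 5853 FPKM, a narrow span. The Chinese Red Steppes libraries had 7953, 8632 and 2922 FPKM, so that both the highest and the lowest library of the series were Chinese Red Steppes. RC6 was at 0.352 of the mean of RC4 and RC5. Wagyu averaged 6272 ± 364 FPKM (SD, n = 3), and Chinese Red Steppes averaged 6502 ± 3119 (SD, n = 3). On the log2 scale the breeds differed by 0.10 with a standard error of 0.40 (limma, adjusted p = 0.929), positive although the Wagyu mean was the lower on the linear scale. Without RC6 the difference turned to -0.40 (standard error 0.13, adjusted p = 0.298 from limma), with all 3 Wagyu libraries below RC4 and RC5. The call was the same with and without RC6, and the direction was not.

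TPM3, the alpha-tropomyosin gene of slow fibres, moved the other way. Its FPKM was 2213, 1696 and 1795 in Wagyu, while Chinese Red Steppes had 1623, 1511 and 3213. RC6 was 2.05 times the mean of RC4 and RC5, and those 2 libraries were the lowest of the series. Wagyu averaged 1901 ± 274 FPKM (SD, n = 3), and Chinese Red Steppes averaged 2116 ± 952 (SD, n = 3). The log2 fold change was -0.08 with a standard error of 0.30 (limma, adjusted p = 0.926). Without RC6 it was 0.27 (standard error 0.15, adjusted p = 0.507 from limma), with the 3 Wagyu libraries above RC4 and RC5.

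TPM4, the tropomyosin of the cytoskeleton, was low beside the muscle forms. It was at 10.6, 19.1 and 10.8 FPKM in Wagyu (13.5 ± 4.87, SD, n = 3), while Chinese Red Steppes had 8.96, 7.33 and 27.0 (14.4 ± 10.9, SD, n = 3), a 3.68-fold range. RC6 and WC719 were the high libraries, and the breeds overlapped. On the log2 scale the breeds differed by 0.08 with a standard error of 0.45 (limma, adjusted p = 0.953), and 0.62 with a standard error of 0.27 without RC6 (adjusted p = 0.403 from limma). Counting error was a smaller part of this spread. The 95% Poisson intervals ran from 25.3 to 28.8 FPKM in RC6, from 17.7 to 20.6 in WC719 and from 6.46 to 8.28 in RC5.

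**Figure D1:**
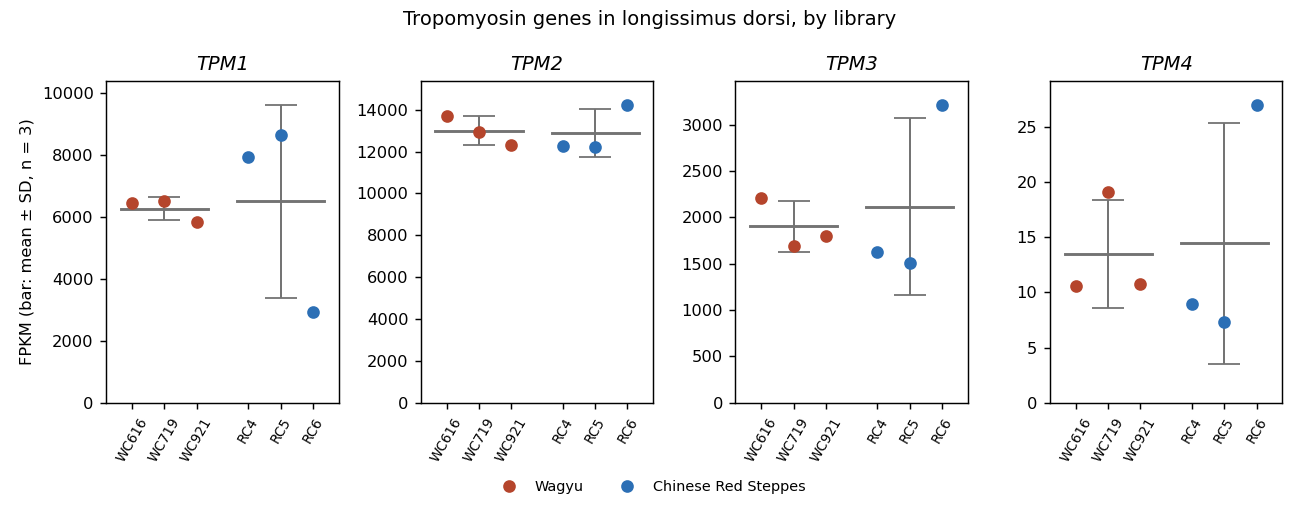
FPKM of the 4 tropomyosin genes in each library, Wagyu in red and Chinese Red Steppes in blue, with the horizontal line at the group mean and the bar at 1 SD (n = 3). RC6 is the lowest library for TPM1, at 2922 FPKM, and the highest for TPM2, TPM3 and TPM4, while RC4 and RC5 lie close together in all 4 panels.

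The summed tropomyosin message varied about as little as TPM2, its largest part. TPM1 to TPM4 added up to 22403, 21176 and 19976 FPKM in Wagyu, while the Chinese Red Steppes sums were 21854, 22379 and 20397. This is a 1.12-fold range, against 1.16-fold for TPM2, 2.95-fold for TPM1 and 2.13-fold for TPM3. On the log2 scale the breeds differed by -0.0247 (two-sided exact permutation test, p = 0.8, where 3 against 3 cannot give less than 0.1), and by -0.0635 without RC6. The direction depended on the scaling, with 0.0307 when each library was scaled to an equal FPKM sum. The difference of RC6 from the mean of RC4 and RC5 was -5371 FPKM for TPM1, 1646 for TPM3 and 1987 for TPM2. For the sum it was -1719 FPKM. Reads, which are not divided by gene length, went the other way for the sum. TPM1 to TPM4 together held 3.93% of the RC6 reads counted to genes, the largest part of any library. RC4 stood at 3.6%, RC5 at 3.62% and the Wagyu libraries at 3.47% to 3.91%. Whether RC6 had less or more tropomyosin message in all is therefore not settled by these values.

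Shares of the tropomyosin sum do not depend on how libraries are scaled to each other. TPM2 held 61.2%, 61.2% and 61.7% of the summed FPKM in Wagyu. It held 56.1%, 54.6% and 69.8% in Chinese Red Steppes, so the Wagyu libraries lay between the Chinese Red Steppes libraries. TPM1 followed with 28.8%, 30.7% and 29.3% in Wagyu and 36.4%, 38.6% and 14.3% in Chinese Red Steppes. TPM3 held 9.88%, 8.01% and 8.99% in Wagyu and 7.43%, 6.75% and 15.8% in Chinese Red Steppes. The mean differences, Wagyu minus Chinese Red Steppes, were 1.17 percentage points for TPM2, -0.145 for TPM1 and -1.02 for TPM3, each with p = 1 (two-sided exact permutation test). Against RC4 and RC5 alone, the Wagyu mean differed by 5.97 points for TPM2, -7.86 points for TPM1 and 1.87 points for TPM3. RC6 stood beyond the Wagyu libraries on the far side for all 3 genes. TPM4 stayed between 0.0328% and 0.132%.

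The 2 alpha genes changed places in RC6. TPM3 was at 0.342, 0.261 and 0.307 of TPM1 in Wagyu, and at 0.204 and 0.175 in RC4 and RC5. In RC6 it was at 1.1 of TPM1. As log2 ratios, the breeds differed by -0.173 (two-sided exact permutation test, p = 1), and the difference was 0.673 with RC6 left out. The sum of TPM1 and TPM3 was at 0.632, 0.633 and 0.621 of TPM2 in Wagyu, at 0.780 and 0.830 in RC4 and RC5 and at 0.431 in RC6, the lowest balance of alpha to beta message. These levels depend on the gene models. The length by which the FPKM values were divided, read back from the values, was 834 bases for TPM1 against 2116 for TPM2 and 2090 for TPM3, so TPM1 held 6.19% to 19.9% of the tropomyosin reads and 14.3% to 38.6% of the tropomyosin FPKM. Differences of 1 gene between libraries do not depend on this length, but differences of the tropomyosin sum do. The sources used here give no account of reads that fit near-identical exons of several tropomyosins. The split between them is uncertain to that extent.

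**Figure D2:**
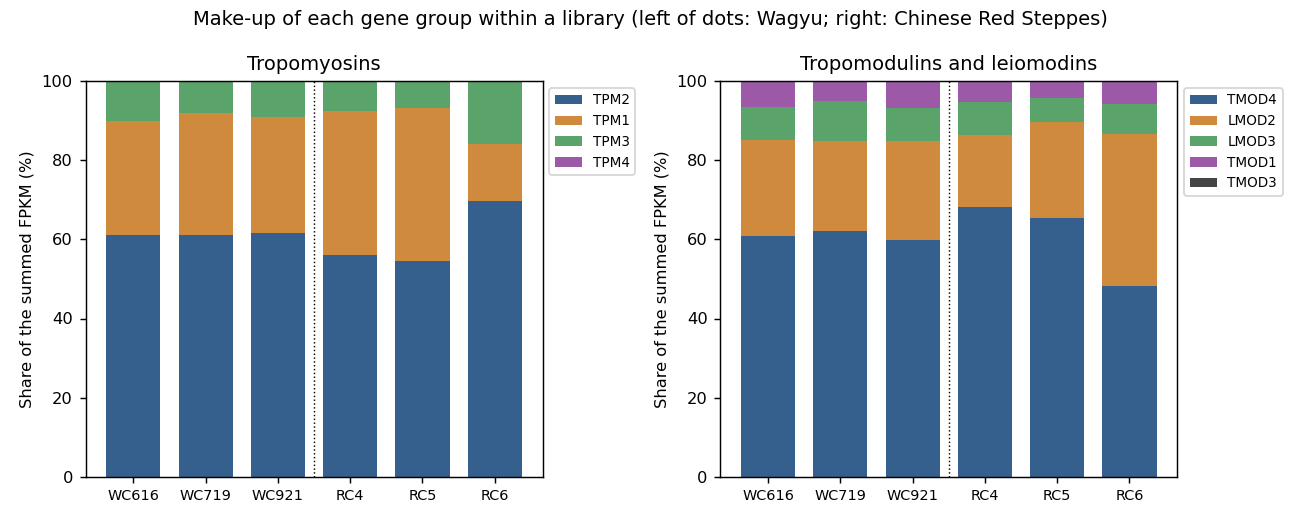
Share of the summed FPKM within each library held by each tropomyosin (left) and by each tropomodulin or leiomodin (right), in percent, with Wagyu libraries left of the dotted line. The 3 Wagyu bars are nearly alike, with TPM2 at 61.2% to 61.7%, and RC6 has the smallest TPM1 share, 14.3%, and the largest TPM3 and LMOD2 shares, 15.8% and 38.2%.

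The profiles of the members over the 6 libraries were compared with those of 4079 other genes with a mean of at least 10 FPKM. Likeness was the root mean square difference between profiles of log2(FPKM + 1), each centred on its own mean, for members with at least a 2-fold range. The genes nearest to TPM1 were PGK1, an enzyme of glycolysis, with a difference of 0.13, and TNNC2, TNNI2 and MYLPF, each with 0.14. TNNC2 and TNNI2 are troponin subunits of fast fibres, and MYLPF is the regulatory light chain of fast myosin. TPM1 itself deviated by 0.51 from its mean on the same measure. TNNC2 had 26987, 26778 and 21308 FPKM in Wagyu, while Chinese Red Steppes had 29609, 34978 and 14260.5, the same order of high and low libraries among Chinese Red Steppes as TPM1.

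For TPM3, the nearest gene was ENSBTAG00000046335, with a difference of 0.06. Next came TNNC1, the troponin C of slow fibres, with 0.11, OPLAH, an enzyme of the glutathione cycle, with 0.12, and IMMP2L, a peptidase of the mitochondrial inner membrane, with 0.13, while TPM3 itself deviated by 0.37. TNNC1 had 8463, 7148 and 6611 FPKM in Wagyu, while Chinese Red Steppes had 7239, 5783 and 14159. The other abundant slow fibre genes, MYL2, TNNT1, TNNI1 and MYH7, were also highest in RC6. MYL2, TNNT1 and TNNI1 were there at 2.98, 3.27 and 3.50 times the mean of RC4 and RC5 and MYH7 at 1.78 times, against 2.05 times for TPM3. Not every slow fibre gene was highest in RC6. MYL6B was lowest there, with 56.0 FPKM against 368 to 1325 in the other libraries. MYOZ2 had 206 FPKM in RC6, below the Wagyu libraries at 226 to 311, and CASQ2 had 9.60 FPKM in RC6 and 13.7 in WC616. These are descriptions of 6 libraries in which RC6 weighs heavily, and the part of fibre composition in the values of TPM1 and TPM3 was not tested.

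**Figure D3:**
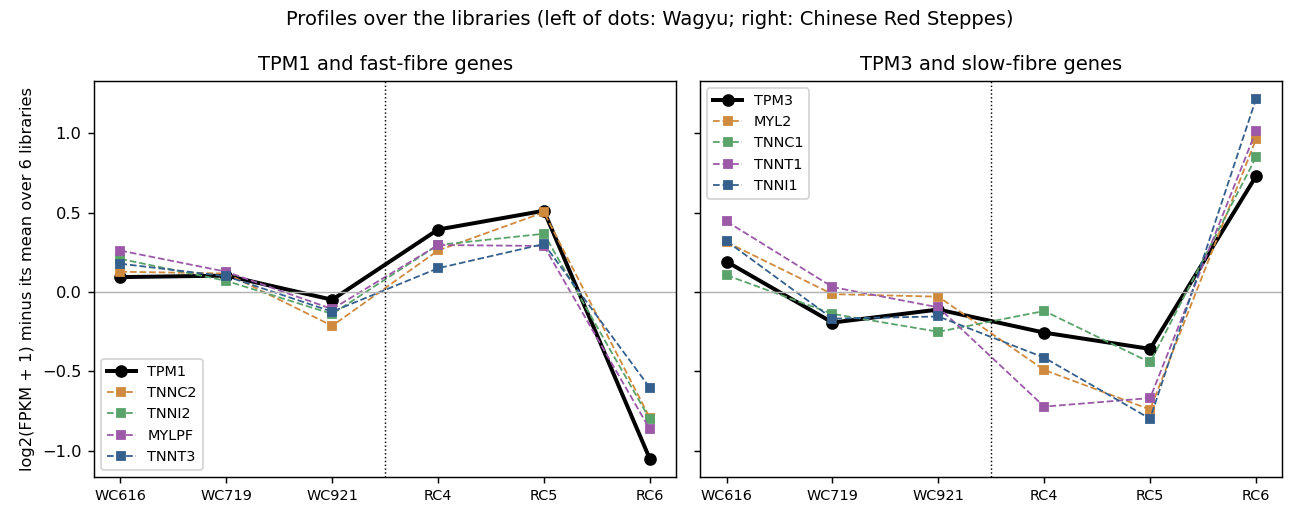
log2(FPKM + 1) minus its mean over the 6 libraries for TPM1 with the 4 fast fibre genes of the highest mean FPKM (left) and for TPM3 with the 4 slow fibre genes of the highest mean FPKM (right). Lines only join the points of a gene. RC6 lies lowest for TPM1 and all 4 fast genes and highest for TPM3 and all 4 slow genes.

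TPM4 ran closest to SLC25A1, the mitochondrial citrate carrier, with a difference of 0.15. TAGLN, an actin-binding protein of smooth muscle, followed with 0.20, and VASP, a protein that promotes actin growth, and ID3, a repressor of differentiation, with 0.22 each. TAGLN had 129, 214 and 120.4 FPKM in Wagyu, while Chinese Red Steppes had 75.9, 78.8 and 230.0, so RC6 and WC719 were high for both genes. The 8 smooth muscle and pericyte markers summed to 265 to 448 FPKM in Wagyu, with a range of 178 to 425 for Chinese Red Steppes and with TAGLN the largest part. Without TAGLN the sum was 195 FPKM in RC6, close to 194 in WC616 and below 234 in WC719. Of the 8 markers 3 (TAGLN, CNN1 and RGS5) were highest in RC6, as were 25% of all genes tested. CNN1 had 36.1 FPKM in RC6 and 24.6 in WC719, against 5.71 to 8.75 in the other libraries. RGS5 had 10.2 FPKM in RC6, against 5.76 to 8.53 in the others. MYH11, the myosin of smooth muscle, had 6.03 FPKM in RC6 and 17.4 in WC719, PDGFRB had 9.12 in RC6 against 12.6 to 18.7 in Wagyu, and CSPG4 was lowest in RC6. Of the 8 fibroblast markers 7 were lowest in RC6, as were 23.7% of all genes tested. Of 8 endothelial markers 3 were highest in RC6. Their sum was 126 FPKM in RC6, against 145 in RC4, 89.7 in RC5 and 138 to 171 in Wagyu. The part of vessel wall cells in the level of TPM4 was not tested.

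At the pointed end, TMOD4, the tropomodulin of skeletal muscle, was the main message. It had 984, 975 and 884 FPKM in Wagyu, while Chinese Red Steppes had 960.3, 1225 and 638. RC5 was the highest library and RC6 the lowest, with the Wagyu libraries between them. Wagyu averaged 947 ± 55.3 FPKM (SD, n = 3), and Chinese Red Steppes averaged 941 ± 294 (SD, n = 3). The log2 fold change was 0.06 with a standard error of 0.24 and a 95% interval of -0.50 to 0.61 (limma, adjusted p = 0.929). Without RC6 it was -0.20 with a standard error of 0.15 (adjusted p = 0.621 from limma).

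TMOD1, the tropomodulin first known from red cells and heart, was the lower by 8.26 to 15.2 times in FPKM. It had 105, 79.5 and 99.0 FPKM in Wagyu, while Chinese Red Steppes had 72.8, 80.8 and 77.2. The breeds overlapped only through WC719 and RC5. Wagyu averaged 94.5 ± 13.4 FPKM (SD, n = 3), and Chinese Red Steppes averaged 76.9 ± 3.99 (SD, n = 3). On the log2 scale the breeds differed by 0.29 with a standard error of 0.15 and a 95% interval of -0.054 to 0.62 (limma, adjusted p = 0.407). RC6 lay between RC4 and RC5 for this gene, and without RC6 the log2 fold change was again 0.29.

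TMOD3, a tropomodulin of many cell types, was near the limit of detection. It had 7, 9 and 5 reads in Wagyu, while Chinese Red Steppes had 9, 4 and 2, which gave 0.974, 1.23, 0.684, 1.24, 0.562 and 0.286 FPKM in this order. The 95% Poisson interval, which covers counting error only, was 0.561 to 2.33 FPKM in WC719 and 0.0346 to 1.03 in RC6, so these libraries could not be told apart at this depth. Without the minimum of 1 FPKM the log2 fold change was 0.24 with a standard error of 0.22 (limma over 16770 genes, adjusted p = 0.708). The genes with the nearest profile were RPS26, BCL9L, bta-mir-1842 and SCN4B, with differences of 0.05, 0.07, 0.09 and 0.09, but a likeness to a profile of 36 reads in all carries little. The gene model behind the values was also short, at 453 bases.

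LMOD2, the leiomodin best known from the heart in mouse and human, was the more abundant leiomodin in every library. It had 391, 358 and 368 FPKM in Wagyu, while Chinese Red Steppes had 254, 450.3 and 505. The Wagyu libraries lay close to each other, between the lowest and the 2 higher Chinese Red Steppes libraries. Wagyu averaged 372 ± 16.9 FPKM (SD, n = 3), and Chinese Red Steppes averaged 403 ± 132 (SD, n = 3). The log2 fold change was -0.06 with a standard error of 0.25 (limma, adjusted p = 0.938), and 0.14 with a standard error of 0.23 without RC6 (adjusted p = 0.847 from limma). Of the cardiac markers measured, 3 were at 0 in every library, and all 6 together summed to 3.83 to 7.17 FPKM. The heart actin ACTC1, given below, is not among these 6. A relation of LMOD2 to heart genes was not tested.

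LMOD3, the leiomodin of skeletal muscle whose loss causes nemaline myopathy in human, was the 1 member whose breeds did not overlap. It had 137, 156 and 125 FPKM in Wagyu, while Chinese Red Steppes had 119, 113 and 101. Every Wagyu library was above every Chinese Red Steppes library, which was also so for 11.4% of all genes tested. No member lay lower in Wagyu without overlap, as 9.16% of all genes did, and in either direction 1 of the 8 members tested did not overlap, against 20.6% of all genes. Wagyu averaged 140 ± 15.9 FPKM (SD, n = 3) and Chinese Red Steppes averaged 111 ± 9.15 (SD, n = 3), a ratio of 1.26. On the log2 scale the breeds differed by 0.32 with a standard error of 0.14 and a 95% interval of -0.0024 to 0.65, and LMOD3 did not pass limma (adjusted p = 0.346). It stayed between 0.24 and 0.40 when any 1 library was left out, and was 0.26 without RC6 (adjusted p = 0.495 from limma).

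**Figure D4:**
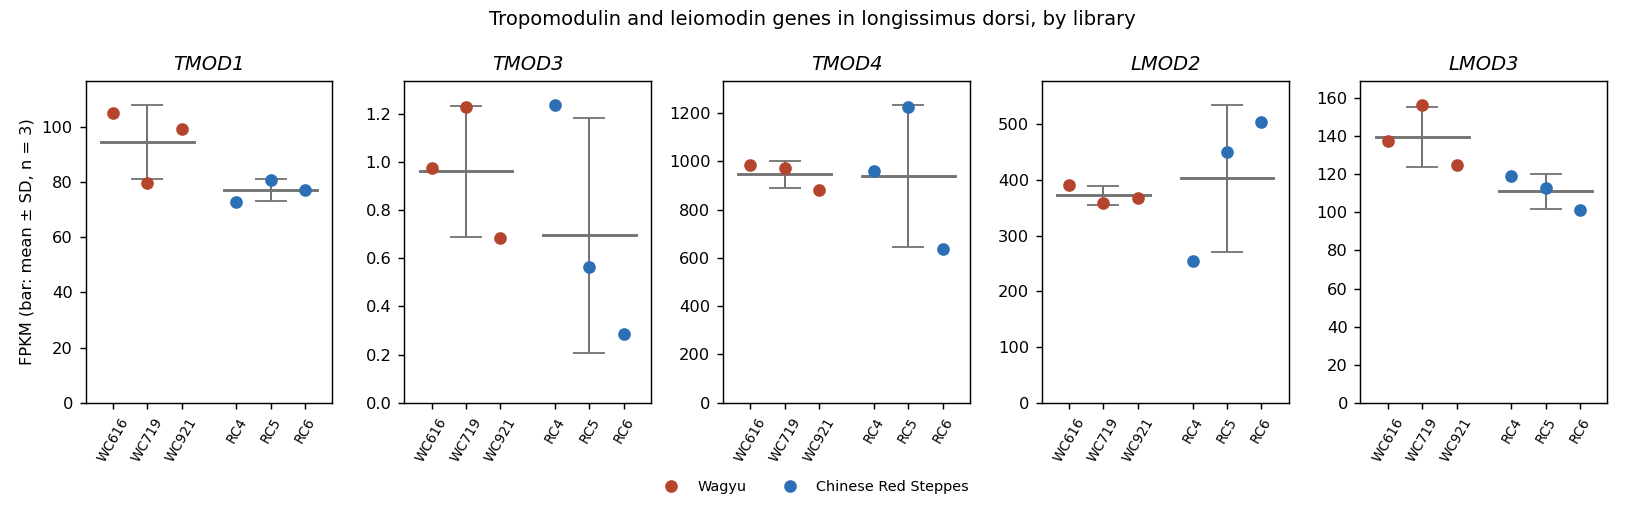
FPKM of the 3 tropomodulin and 2 leiomodin genes in each library, Wagyu in red and Chinese Red Steppes in blue, with the horizontal line at the group mean and the bar at 1 SD (n = 3). The breeds do not overlap for LMOD3 only, and TMOD4 and LMOD2 spread more widely in Chinese Red Steppes (SD 294 and 132 FPKM) than in Wagyu (SD 55.3 and 16.9 FPKM).

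The tropomodulins and leiomodins summed to 1618, 1570.0 and 1477 FPKM in Wagyu, while the Chinese Red Steppes sums were 1408, 1869 and 1322. The difference of the log2 sums was 0.0365 (two-sided exact permutation test, p = 0.9), and it turned to -0.0621 without RC6. TMOD4 held 59.9% to 62.1% of the sum in Wagyu, 68.2% and 65.5% in RC4 and RC5 and 48.3% in RC6. LMOD2 went the other way in RC6, with 22.8% to 24.9% in Wagyu, 18.1% and 24.1% in RC4 and RC5 and 38.2% in RC6. The mean difference turned from 0.252 to -5.95 percentage points for TMOD4, and from -2.83 to 2.89 for LMOD2, when RC6 was left out. TMOD4 was 2.40 to 3.77 times LMOD2 in 5 libraries and 1.26 times in RC6.

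LMOD3 held 8.48%, 9.97% and 8.47% of this sum in Wagyu and 8.46%, 6.04% and 7.65% in Chinese Red Steppes. The breeds did not overlap, but WC921 and RC4 nearly met. The mean difference of 1.59 points had p = 0.1, the smallest that the two-sided exact permutation test can give here, and an adjusted p of 1 over the 13 sums, shares and ratios tested, and it was 1.72 points without RC6. TMOD1 held 5.06% to 6.71% in Wagyu and 4.32% to 5.84% in Chinese Red Steppes (exact permutation p = 0.3). The log2 ratio of the pointed-end sum to the tropomyosin sum was -3.79, -3.75 and -3.76 in Wagyu, while Chinese Red Steppes had -3.96, -3.58 and -3.95, a difference of 0.0611 (exact permutation p = 0.8) that came to 0.00148 without RC6.

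**Figure D5:**
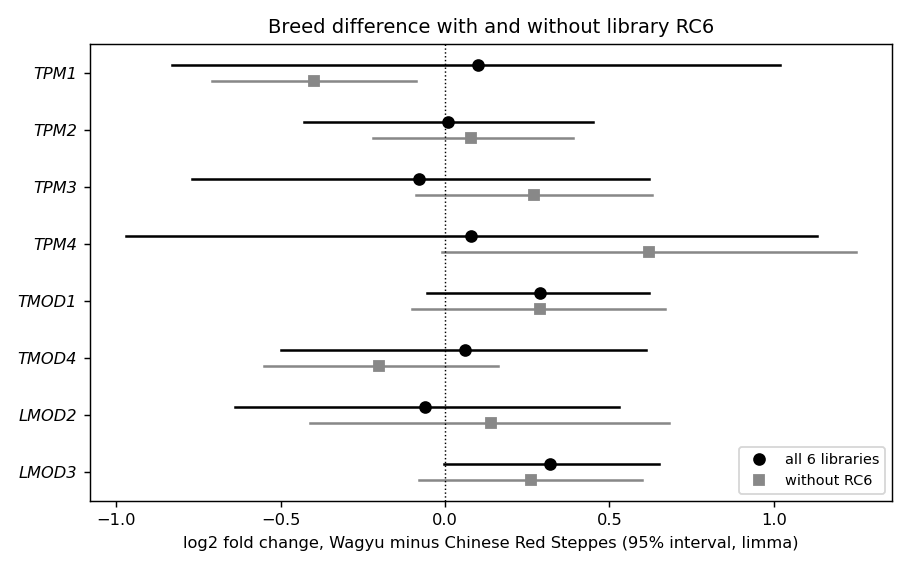
log2 fold change on the log2(FPKM + 1) scale, Wagyu minus Chinese Red Steppes, with its 95% interval from limma for the 8 members tested, from all 6 libraries (black circles) and without RC6 (grey squares). TPM1 moves from 0.10 to -0.40 and TPM3 from -0.08 to 0.27 when RC6 is left out, while TMOD1 and LMOD3 stay at 0.29 and between 0.26 and 0.32.

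RC6 was the highest of the 6 libraries for 4 of the 8 members tested (TPM2, TPM3, TPM4 and LMOD2) and the lowest for 3 (TPM1, TMOD4 and LMOD3). Among all genes tested it was the highest for 25% and the lowest for 23.7%. Without RC6, the breeds did not overlap for 5 of the 8 members, against 31% of all genes tested. TPM1 was then lower in Wagyu, as were 13.5% of all genes, and TPM2, TPM3, TPM4 and LMOD3 were higher, as were 17.5%. RC6 was set apart by fibre type genes, and it was the highest or the lowest library for each of these 5 members. The count of 5 is therefore not independent of leaving RC6 out. None of the 8 passed limma without RC6 (adjusted p 0.298 to 0.847), but that fit called 0 of 9932 genes. By edgeR, which then called 14 of 11940 genes, no member passed either. The same held by DESeq2, which called 242 of the 16542 genes to which it gave a p-value.

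The relatives that are not members were the neuronal tropomodulin TMOD2 and the smooth muscle leiomodin LMOD1. TMOD2 had between 0 and 5 reads per library. LMOD1 had 69.0, 30.4 and 27.5 FPKM in Wagyu, while Chinese Red Steppes had 34.7, 70.4 and 109, with overlap between the breeds. Its log2 fold change was -0.72 with a standard error of 0.47 (adjusted p = 0.507 from limma), and -0.35 without RC6.

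Outside the members, 28 partner genes, mostly of the thin filament and its ends, were listed, and 26 were tested. They included actins, troponins, capping proteins, nebulin and the kelch proteins KLHL40 and KLHL41. The list also held the alpha-actinins ACTN2 and ACTN3 and the myosin-binding proteins MYBPC1 and MYBPC2. None of the 26 passed limma in either direction. At an unadjusted p under 0.05, 4 were higher and 1 (MYBPC1) lower in Wagyu, against 8.64% and 5.87% of all genes. Of the 26 log2 fold changes, 15 were above 0, with a median of 0.06, against 0.03 over all genes. The breeds did not overlap for 7 of the 26, against 20.6% of all genes, and for 15 without RC6, against 31%. The troponins, ACTN3 and MYBPC2 among these partners are also on the fibre type lists by which RC6 was set apart. The count of 15 is therefore not independent of leaving RC6 out. DESeq2 on the recovered reads called 2 of them, ACTC1 (adjusted p = 0.0313) and FHOD3 (adjusted p = 0.0467), against 1.94% of the genes to which it gave an adjusted p. Without RC6, DESeq2 called FHOD3 (adjusted p = 0.00828) and TNNT1 (adjusted p = 0.0272), and ACTC1 no longer passed (adjusted p = 0.0639). That fit called 242 of the 16542 genes to which it gave a p-value. TNNT1 had 8940, 6713 and 6143 FPKM in Wagyu and 3982, 4133 and 13263 in Chinese Red Steppes. It is among the slow fibre genes by which RC6 was set apart, so its call is not independent of leaving RC6 out. FHOD3, a formin that takes part in thin filament assembly, was at 30.3, 16.1 and 27.9 FPKM in Wagyu and at 10.7, 10.6 and 16.0 in Chinese Red Steppes. Its log2 fold change was 0.91 with a standard error of 0.27 (adjusted p = 0.247 from limma), and 1.1 without RC6.

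ACTC1, the actin of the heart and of developing muscle, had 170.5, 53.7 and 6.76 FPKM in Wagyu, while Chinese Red Steppes had 1.35, 4.50 and 6.55. All Wagyu libraries were above all Chinese Red Steppes libraries, but WC921 only just, and the log2 fold change of 3.18 had a standard error of 1.02 (limma, adjusted p = 0.271). It was 3.54 without RC6 and 2.16 without WC616. CAPZA1, a subunit of the protein that caps the barbed end, was at 6.47, 9.59 and 7.60 FPKM against 5.04, 3.99 and 6.00 in Chinese Red Steppes. Its log2 fold change was 0.56 with a standard error of 0.20 (adjusted p = 0.293 from limma), and 0.68 without RC6. MYBPC1, the myosin-binding protein C of slow fibres, was at 1003, 1121 and 914 FPKM against 1190, 1338 and 1725 in Chinese Red Steppes. Its log2 fold change was -0.47 with a standard error of 0.18 (adjusted p = 0.321 from limma), and -0.32 without RC6.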

How the data were processed

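RNA of 6 longissimus dorsi samples, 3 per breed, was sequenced by the authors as paired-end poly(A) libraries. The deposited FPKM values of all genes and the deposited raw counts of 205 genes were used. The log2 fold change, the FDR adjusted p-value and the mean signal per breed that the authors deposited for those 205 genes were not used. The paper names TopHat and Bowtie, and the submitters' processing notes name HISAT2 and build UMD3.1. Which of these made the values was not settled, and the sources used here give no account of strand or shared reads.

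The breeds were compared with limma (3.58.1, R 4.3.3, trended variances) on log2(FPKM + 1). The test was two-sided over 9990 genes, those whose FPKM averaged 1 or more, and p-values were adjusted after Benjamini and Hochberg with a threshold of 0.05. Sums, shares and ratios were compared by exact permutation (scipy 1.17.1). The counts of 205 genes gave the reads per library, and from these whole reads were recovered for 16770 of 16770 genes above 0 (within 0.01 of a whole number in every library). They equalled the deposited counts for 203 of the 205 genes, and edgeR (4.0.16) and DESeq2 (1.42.0) were run on them as alternatives. Scripts were tested on simulated data. The reads of every pair of libraries differed more than sampling allows (ratio of chi-square to its degrees of freedom 28.7 to 195), and all 6 counted as replicates. Poisson intervals cover counting error only.

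The text names all 9 members, the 4 thin filament partners of smallest p, up to 4 slow and 4 fast fibre genes of highest mean, and the 4 genes of nearest profile. Other genes were named outside this rule after their values were seen. They were LMOD1, TMOD2, MYH7, MYL6B, MYOZ2, CASQ2, MYL1, PVALB, MYH11, PDGFRB, CSPG4, CNN1, RGS5, KLHL40, KLHL41, ACTN2, ACTN3, MYBPC2 and the cardiac markers. The skeletal muscle markers were also named outside the rule, as a whole list. The members and lists were chosen with earlier results of these data known. KLHL40 and KLHL41 were matched by gene ID in RefSeq (assembly ARS-UCD2.0), all others by the names in the table. MYH6, a cardiac marker on the list, was not analysed here. Alternatives changed the pseudocount, filter, scaling and test and left out each library. Fits by edgeR and DESeq2 without RC6, and the smooth muscle sum without TAGLN, were added after the data were seen.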

Additional observations from a re-analysis of the deposited data

How the results depend on the processing

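The count of 0 members past the threshold held under all alternatives, with the lowest adjusted p of any member at 0.158 (TPM1, DESeq2 without RC6). By limma, from 0 genes (no filter) to 5 genes (equal FPKM sums) passed in all, so 0 members there says little. On recovered reads edgeR called 8 genes and DESeq2 237, and without RC6 they called 14 and 242. For thin filament partners the count was 0 except 2 with DESeq2 on recovered reads (ACTC1 and FHOD3) and 2 with DESeq2 without RC6 (FHOD3 and TNNT1, with ACTC1 lost at adjusted p = 0.0639). It was 0 by limma with any 1 library left out, in fits that called only 0 to 3 of all genes. Most sums, shares and ratios turned direction when 1 library was left out. The differences ran from -0.0658 to 0.0169 for the log2 tropomyosin sum, -0.0621 to 0.188 for the log2 pointed-end sum, -0.652 to 0.673 for the log2 ratio of TPM3 to TPM1 and -0.00268 to 0.185 for that of the pointed-end to the tropomyosin sum. In percentage points the shares ran from -7.86 to 4.26 for TPM1, -1.61 to 5.97 for TPM2, -2.63 to 1.87 for TPM3, -0.0228 to 0.0269 for TPM4, -5.95 to 4.03 for TMOD4 and -7.2 to 2.89 for LMOD2. The shares of LMOD3 (0.916 to 2.13), TMOD1 (0.581 to 1.49) and TMOD3 (0.00258 to 0.0357) kept their direction. The tropomyosin sum was also at 0.0307 with equal FPKM sums and 0.00497 with quantile normalization, the pointed-end sum at -0.00981 with quantile normalization and the TMOD4 share at -0.43 with recovered reads. Single genes near 0 turned too. With edgeR, edgeR with DESeq2 size factors and DESeq2 on recovered reads the log2 fold changes were -0.088, -0.085 and -0.085 for TPM1, -0.021, -0.014 and -0.014 for TPM2, -0.13, -0.12 and -0.12 for TPM4 and -0.024, -0.019 and -0.019 for TMOD4. TPM2 was also at -0.014 with median of ratios scaling. With 1 library left out, the limma values ran from -0.40 to 0.38 for TPM1, -0.028 to 0.084 for TPM2, -0.27 to 0.27 for TPM3, -0.25 to 0.62 for TPM4, -0.20 to 0.27 for TMOD4 and -0.36 to 0.14 for LMOD2. Without RC6, edgeR and DESeq2 gave -0.45 and -0.44 for TPM1, 0.24 and 0.24 for TPM3, -0.25 and -0.25 for TMOD4 and 0.038 and 0.043 for LMOD2. The causes of these turns were not tested. TMOD1 and LMOD3 stayed above 0 in every alternative (0.20 to 0.40 and 0.22 to 0.40). The design pairs no animal of 1 breed with an animal of the other, so no paired analysis was possible. Depth limits TMOD3 only, at 2 to 9 reads per library. With 3 animals per breed, the 95% intervals span folds of 0.509 to 2.2 for TPM4 and 0.744 to 1.37 for TPM2.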
